A study of Caenorhabditis elegans with 8 samples.

Results

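The effect of a mutant lamin on transcripts was measured in Caenorhabditis elegans larvae that lack the heterochromatin anchor CEC-4. The comparison set larvae with both lamin Y59C and the cec-4 deletion, the double mutant (libraries a and b), against the cec-4 mutant (libraries a and b), so 4 of the 8 RNA-seq libraries of the study, and took in all 14355 genes that passed a filter on low counts. The double mutant was strain GW1468. It carries an integrated transgene in which the baf-1 promoter drives lmn-1 with the Y59C change fused to GFP, together with unc-119(+) as its marker, the mutation unc-119(ed-3), and the deletion cec-4(ok3124) on chromosome IV. The cec-4 mutant was strain GW828 and carries cec-4(ok3124) alone, so the deletion is common to both sides. The same lamin effect with CEC-4 present was read from strain GW653, which has the transgene and unc-119(ed-3) (called lamin Y59C here), against wild-type Bristol N2, again with 2 libraries each. All larvae were first-stage (L1) animals that hatched in buffer for 16 h, were fed for 2.5 h, and were sorted as non-green. The mutant lamin is expressed from an added transgene under the promoter of another gene, and a control transgene with normal lamin was not analysed here. The transgene, its marker and unc-119(ed-3) therefore go together with the lamin mutation, and their effects cannot be told apart. The labels do not say whether libraries a and b came from separate cultures, so the p-values may measure technical spread only.

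Lamins form the meshwork under the inner nuclear membrane, and LMN-1 is the only lamin of the worm. The Y59C change stands for a human lamin A mutation found in Emery-Dreifuss muscular dystrophy, a disease of muscle. CEC-4 is a chromodomain protein of the nuclear periphery that binds methylated histone H3 lysine 9 and so holds heterochromatin at the nuclear envelope. The question the comparison answers is which transcripts differ with the mutant lamin once that anchor is gone.

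The double mutant libraries held 32695286 and 32490114 deposited counts, and the libraries of the cec-4 mutant held 30997254 and 36783388. Library totals ranged up to 57069281 over the study, with 17107 to 17569 genes detected. Across genes, which are not independent replicates, log2 CPM had a Pearson correlation of 0.995 between the double mutant libraries and 0.994 between the cec-4 libraries. Transcripts of the mitochondrial genome took 0.562% and 0.550% of the counts in the double mutant, against 0.443% and 0.704% in the cec-4 mutant, where library b was the highest of the 8.

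The altered genes were read first. Transcripts of unc-119 (WBGene00006843, III:10902641-10908935 on the plus strand, WBcel235), the neuronal gene used as the transgene marker, stood at 43.1 and 43.3 CPM in the double mutant, against 24.3 and 22.4 CPM in the cec-4 mutant. The rise was 0.89 ± 0.06 (log2 ± SE, adjusted p = 0.000438; this and every adjusted p of a gene below is from edgeR's quasi-likelihood test with Benjamini-Hochberg adjustment over all genes tested). Transcripts of cec-4 (WBGene00017990, IV:7575718-7577326) were low in both groups, at 4.35 and 4.61 CPM in the double mutant and 5.04 and 4.76 CPM in the cec-4 mutant, and their difference did not pass the test (-0.13 ± 0.12, adjusted p = 0.706). They were at 12.3 and 12.3 CPM in lamin Y59C and at 14.5 and 12.7 CPM in wild-type, so all 4 libraries labelled with the deletion lay below the other 4. The lamin gene lmn-1 (WBGene00003052, I:8763041-8765631) had 488 and 523 CPM in the double mutant and 429 and 473 CPM in the cec-4 mutant (0.17 ± 0.07, adjusted p = 0.313). Reads of the endogenous lamin and of the transgene are not separated in these counts. Transcripts of baf-1, whose promoter drives the transgene, had 66.0 and 69.5 CPM in the double mutant and 61.1 and 62.3 CPM in the cec-4 mutant (adjusted p = 0.353).

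With 2 libraries a group, few genes were called, and the count of calls does not give how many genes differ. Of the 14355 genes, 111 were called at an adjusted p under 0.05, 38 higher and 73 lower in the double mutant, which is 0.773% of the genes tested, 0.265% higher and 0.509% lower. DESeq2 called 250 genes, 93 higher and 157 lower, and 108 of them were among the 111. Without adjustment, 858 genes were higher and 1030 lower at p under 0.05, together 13.2% of the genes tested. All 111 called genes are protein coding, and 30 of them changed more than 2-fold while 43 changed less than 1.5-fold. The median change was 0.62 for the called rises and -0.70 for the called falls. In all 111 the double mutant libraries lay on one side of the cec-4 libraries, as they did in 41.9% of all genes tested. Whole larvae were used, so fewer cells of a type and less RNA per cell cannot be told apart anywhere below.

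**Figure D1:**
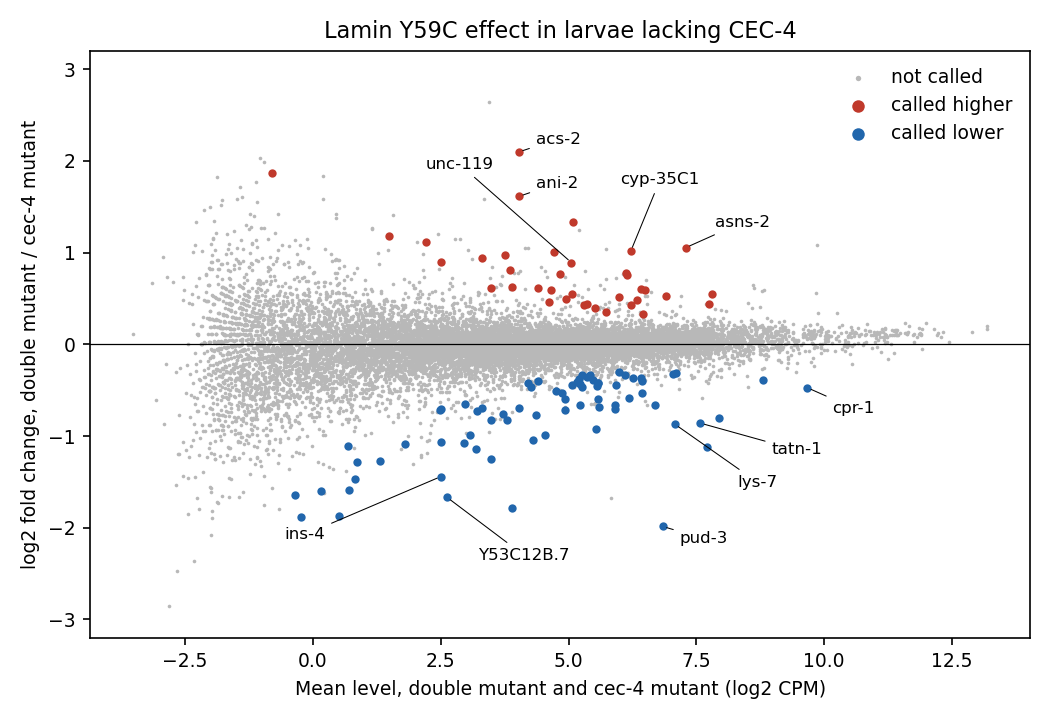
Each point is a gene, with its mean level over the double mutant and the cec-4 mutant (log2 CPM) on the horizontal axis and its log2 fold change, double mutant over cec-4 mutant, on the vertical axis. The 38 called rises and 73 called falls lie around a median of -0.00 over all genes, and most called genes of over 20 CPM changed by less than 1 on the log2 scale. The called gene R03G8.1, with no counts in the cec-4 mutant, and 1 gene that was not called, daf-42 (-5.22), lie outside the plot.

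The count of calls changed when single libraries were left out. Leaving out a library of a compared group also leaves that group without a replicate. How much that adds to the changes was not tested. Without double mutant b the fit called 11 genes, without double mutant a 33 and without cec-4 b 36, of which 10, 26 and 30 were among the 111. Without cec-4 a it called 114, and 66 of these were among the 111. Leaving out a library of the lamin Y59C or wild-type groups, which only add to the estimate of the spread, gave 111 to 140 calls. Only 6 of the 111 genes were called whichever of the 8 libraries was left out, namely ani-2, unc-119, R03G8.1, Y53C12B.7, lys-7 and aqp-8. These 6 were picked out after their values were seen.

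**Figure D2:**
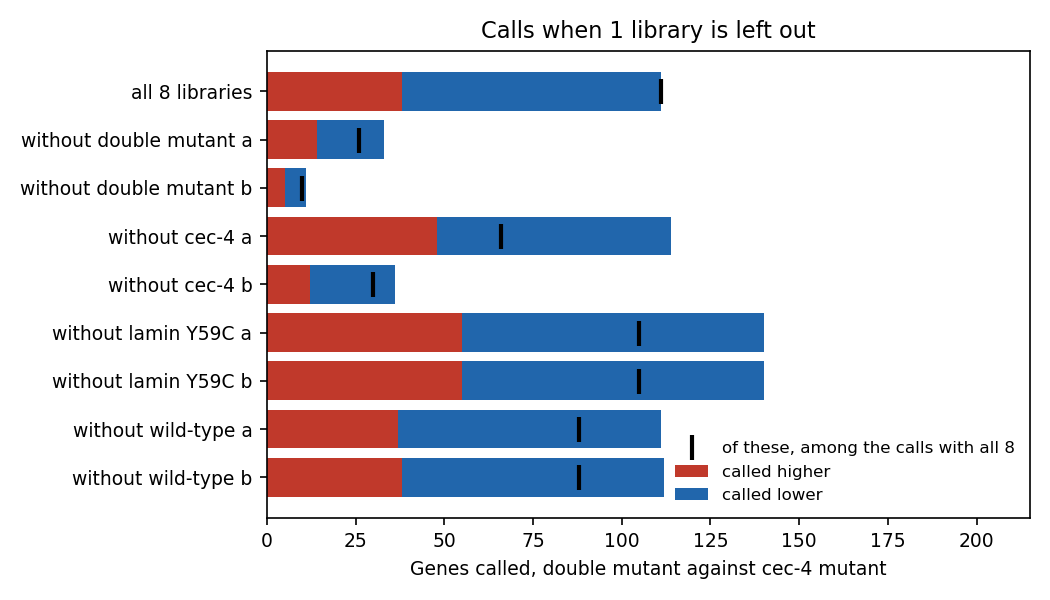
Horizontal bars give the number of genes called in the double mutant against the cec-4 mutant with all 8 libraries and with each library left out, split into higher (red) and lower (blue); the black mark gives how many of them were among the 111. The bars without double mutant b, double mutant a and cec-4 b are the shortest, at 11, 33 and 36.

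Among the genes that held throughout, ani-2 rose the most of those with counts in both groups. It encodes an anillin, a scaffold protein of the actomyosin cortex known for its part in the shared cytoplasm of the germ line (WBGene00019608, II:6361159-6365367, minus strand). Its transcripts stood at 24.7 and 24.6 CPM in the double mutant, against 8.57 and 7.61 CPM in the cec-4 mutant, a rise of 1.61 ± 0.09 (adjusted p = 7.74e-05, at most 0.00283 with any library left out). The levels were also apart with CEC-4 present, at 23.1 and 21.5 CPM in lamin Y59C and 7.72 and 8.36 CPM in wild-type. The paralogs ani-1 and ani-3 were tested and neither was called. Germ line markers were higher in value in the double mutant in 11 of 11 tested, with a median of 0.17, and 0 were called by edgeR or DESeq2 (4 had an unadjusted p under 0.05, all higher). Their summed level was 123 and 121 CPM in the double mutant and 105 and 106 CPM in the cec-4 mutant. The largest values were 0.55 ± 0.17 for the helicase gene glh-2 (adjusted p = 0.180) and 0.41 ± 0.12 for the RNA-binding gene gld-1 (adjusted p = 0.177). The part of germ line content in the rise of ani-2 was not tested.

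R03G8.1 (WBGene00010996, X:13084573-13087646) had 184 and 113 counts in the double mutant and 0 and 0 counts in the cec-4 mutant, so it was at least 52.4-fold higher (against a floor of 3 counts per library, for counting error only; adjusted p = 0.00141). The strains without the transgene had none of its reads: it had 48 and 48 counts in lamin Y59C and 0 and 0 counts in wild-type. Among the falls that held, Y53C12B.7 (WBGene00013146, II:9750412-9753218) had 2.67 and 3.23 CPM in the double mutant, against 9.91 and 8.87 CPM in the cec-4 mutant (-1.67 ± 0.13, adjusted p = 0.000911).

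Some genes of fatty acid use and synthesis were among the rises. The largest was in acs-2 (WBGene00009221, V:15567394-15569897), an acyl-CoA synthetase of mitochondrial fatty acid oxidation that is known to be induced by fasting. It stood at 19.7 and 33.2 CPM in the double mutant, against 6.41 and 5.97 CPM in the cec-4 mutant, a rise of 2.10 ± 0.26 (adjusted p = 0.00888). The double mutant libraries differed from each other by more than the cec-4 libraries did, yet both lay well above them, and the call was lost without cec-4 b (adjusted p = 0.0506). The carnitine palmitoyltransferase gene cpt-4, whose product passes fatty acids into mitochondria, had 80.9 and 97.6 CPM in the double mutant and 59.9 and 46.1 CPM in the cec-4 mutant (0.75 ± 0.13, adjusted p = 0.0300). The acetyl-CoA synthetase gene acs-19 had 259.6 and 268 CPM in the double mutant and 169 and 192 CPM in the cec-4 mutant (0.55 ± 0.07, adjusted p = 0.00875, 0.0815 without double mutant b). The stearoyl-CoA desaturase gene fat-7, which makes monounsaturated fatty acids, had 77.7 and 71.6 CPM in the double mutant and 54.4 and 50.4 CPM in the cec-4 mutant (0.51 ± 0.08, adjusted p = 0.0185). Neither group overlapped the other in these 4 genes, as in all 111 called genes and in 41.9% of all genes tested. The calls of cpt-4 and fat-7 were lost without either double mutant library or cec-4 b, with adjusted p up to 0.240 for cpt-4 and 0.114 for fat-7.

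These rises did not run through the families. Of 19 acyl-CoA synthetases tested, 2 rose and 0 fell, with a median of 0.00, and of 15 desaturases and elongases 1 rose and 0 fell, with a median of 0.07. Of 6 lysosomal lipases, which release fatty acids from stored fat, 0 were called by edgeR and 1 was called lower by DESeq2, with 0 higher and 2 lower by an unadjusted p under 0.05 and a median of -0.08. The nearest to a call was lipl-2, at 38.8 and 33.2 CPM in the double mutant and 53.2 and 58.97 CPM in the cec-4 mutant (-0.64 ± 0.14, adjusted p = 0.0739). Of 26 genes known from fasting and L1 arrest, 2 rose (acs-2 and cpt-4) and 1 fell, the metallothionein gene mtl-1. It had 47.6 and 45.4 CPM in the double mutant and 74.3 and 72.6 CPM in the cec-4 mutant (-0.66 ± 0.10, adjusted p = 0.0223, up to 0.209 with a library left out). The isocitrate lyase gene icl-1, the glyoxylate shunt enzyme, had 980.0 and 1548 CPM in the double mutant and 745 and 446 CPM in the cec-4 mutant, and with libraries this far apart its difference did not pass the test (1.09 ± 0.33, adjusted p = 0.189). The asparagine synthetase gene asns-2 rose. It had 205 and 218 CPM in the double mutant and 100.0 and 104 CPM in the cec-4 mutant (1.05 ± 0.17, adjusted p = 0.0251), and the call was lost without any 1 of these 4 libraries (adjusted p up to 0.194). Its levels in lamin Y59C (81.1 and 109.6 CPM) and wild-type (139.5 and 93.0 CPM) overlapped.

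The UDP-glucuronosyltransferases leaned upward. These enzymes of xenobiotic metabolism join a sugar to small lipophilic compounds so that they can be excreted. Of 64 tested, 4 rose and 0 fell, 51 had a positive value, and the median was 0.24, against -0.00 over all genes. At an unadjusted p under 0.05, 24 were higher and 3 lower. Over the fits that left out 1 library, 0 to 6 were called higher and 0 to 2 lower, and the median stayed between 0.20 and 0.32. The largest called rise was in ugt-9 (WBGene00020587, V:4896048-4897969), with 31.7 and 38.7 CPM in the double mutant and 18.4 and 16.6 CPM in the cec-4 mutant (1.01 ± 0.14, adjusted p = 0.0131). The gene ugt-16 (WBGene00013901, V:12825024-12827442) had 83.5 and 92.9 CPM in the double mutant and 54.5 and 48.7 CPM in the cec-4 mutant (0.77 ± 0.10, adjusted p = 0.0107). The groups were apart in both genes, as in all 111 called genes, and both calls were lost without cec-4 b or double mutant b. The other called members were ugt-21 (0.62 ± 0.09, adjusted p = 0.0145) and ugt-5 (0.44 ± 0.08, adjusted p = 0.0434), both lost without double mutant b. The ugt-5 call was also lost without double mutant a, either cec-4 library or either wild-type library. Members of this family are similar in sequence, so reads may be shared among them. A member far on the other side was ugt-42, at 1.01 and 1.18 CPM in the double mutant and 2.52 and 2.30 CPM in the cec-4 mutant (-1.13 ± 0.22, adjusted p = 0.0502).

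Other enzymes of xenobiotic metabolism gave single calls. Of 68 cytochrome P450 genes, which oxidise such compounds, 2 rose and 0 fell, with a median of 0.03, and 8 were higher and 6 lower by an unadjusted p under 0.05. The inducible cyp-35C1 (WBGene00007362, V:13896663-13898487) had 93.0 and 106 CPM in the double mutant and 55.9 and 42.8 CPM in the cec-4 mutant (1.02 ± 0.16, adjusted p = 0.0185), and cyp-36A1 had 15.8 and 20.03 CPM in the double mutant against 11.5 and 11.8 CPM in the cec-4 mutant (0.62 ± 0.12, adjusted p = 0.0466). Of 49 glutathione S-transferases, which join glutathione to them, 1 rose and 1 fell, with a median of -0.04, and 6 were higher and 5 lower by an unadjusted p under 0.05. The riser was gst-4, a known target of the oxidative stress factor SKN-1, with 33.6 and 37.95 CPM in the double mutant and 22.0 and 20.2 CPM in the cec-4 mutant (0.76 ± 0.11, adjusted p = 0.0149), and gst-13 fell by 0.30 ± 0.06 (adjusted p = 0.0433). The carboxylesterase gene cest-2.1 rose by 1.12 ± 0.17 (adjusted p = 0.0157). All 5 calls were lost without double mutant b or cec-4 b, and all but that of cyp-36A1 without double mutant a. Those of cyp-36A1 and gst-13 were also lost without any 1 library of lamin Y59C or wild-type.

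**Figure D3:**
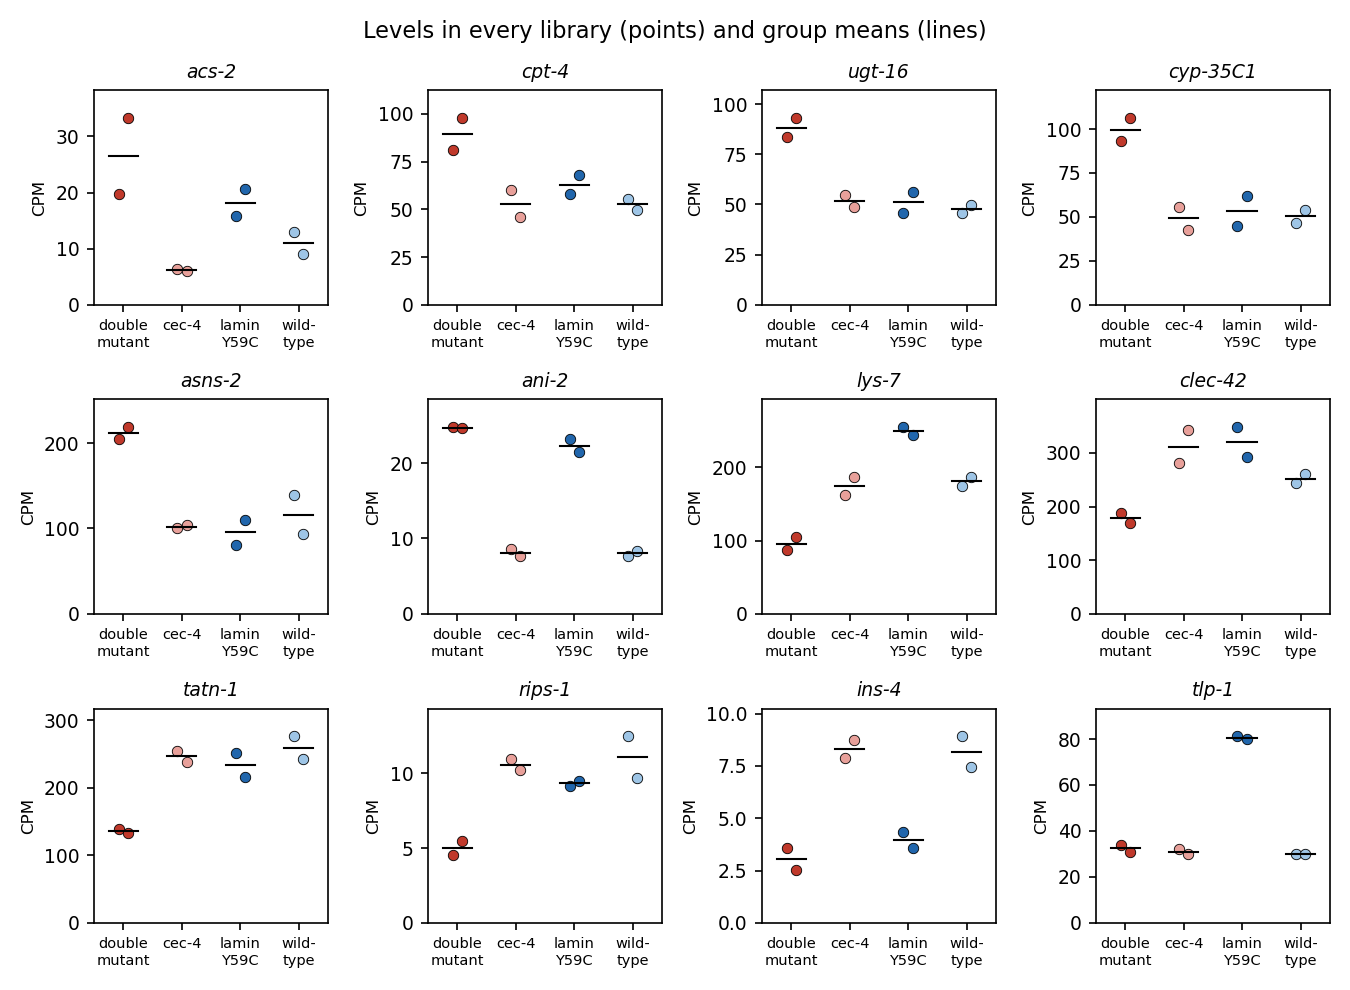
Each panel gives the CPM of 1 gene in every library (points) with the group mean (line), for the double mutant, the cec-4 mutant, lamin Y59C and wild-type. The double mutant points stand above the cec-4 points for acs-2, cpt-4, ugt-16, cyp-35C1, asns-2 and ani-2 and below them for lys-7, clec-42, tatn-1, rips-1 and ins-4, and only lamin Y59C stands apart for tlp-1.

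Genes of the intestinal defence against microbes were among the falls. Lysozymes cleave bacterial cell walls, and of 11 tested 0 rose and 2 fell, with a median of -0.21 and negative values in 9. The gene lys-7 (WBGene00003096, V:3481432-3482600) had 86.8 and 105 CPM in the double mutant, against 163 and 187 CPM in the cec-4 mutant (-0.87 ± 0.09, adjusted p = 0.00558, at most 0.0477 with any library left out). The gene lys-2 had 116 and 118 CPM in the double mutant and 146 and 147 CPM in the cec-4 mutant (-0.32 ± 0.06, adjusted p = 0.0338). As in all 111 called genes, the groups were apart in lys-7 and lys-2, and the lys-2 call was lost without any 1 of these 4 libraries.

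C-type lectins are secreted or membrane proteins with a sugar-binding fold, many of them made in the intestine. Of 113 tested, 0 rose and 5 fell, with a median of -0.08; at an unadjusted p under 0.05, 10 were higher and 28 lower, and DESeq2 called 13 lower. No lectin was called lower when either double mutant library was left out, and up to 7 were called lower in the other fits that left out 1 library. The most abundant of the 5, clec-42 (WBGene00008891, V:18191412-18194168), had 188 and 170.0 CPM in the double mutant and 281 and 342 CPM in the cec-4 mutant (-0.80 ± 0.11, adjusted p = 0.0117). The others were clec-55 (-1.29 ± 0.21), clec-52 (-0.60 ± 0.11), clec-80 (-0.46 ± 0.09) and clec-62 (-0.43 ± 0.07). Of 30 small antimicrobial peptide-like genes, 0 rose and 1 fell, with a median of -0.16. It was fipr-21, with 51.8 and 51.5 CPM in the double mutant and 69.3 and 71.0 CPM in the cec-4 mutant (-0.44 ± 0.06, adjusted p = 0.0117). Of 44 lysosomal proteases and saposins 0 rose and 3 fell, with a median of -0.04, but 8 were higher and 9 lower by an unadjusted p under 0.05, DESeq2 called 3 higher and 6 lower, and the 4 libraries alone gave 3 higher and 2 lower. The saposin-like genes spp-18 and spp-2 fell by 0.66 ± 0.09 and 0.71 ± 0.13, and the cathepsin B-like protease gene cpr-1, the most abundant called gene, had 660.4 and 703 CPM in the double mutant and 881 and 1011 CPM in the cec-4 mutant (-0.47 ± 0.09, adjusted p = 0.0373). All of the falls in this paragraph were lost without either double mutant library, with adjusted p up to 0.136 for clec-42, 0.145 for clec-55, 0.258 for clec-52, 0.271 for clec-80, 0.241 for clec-62, 0.128 for fipr-21, 0.144 for spp-18, 0.294 for spp-2 and 0.195 for cpr-1.

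Not all infection-linked genes fell. Of 23 genes of the p38 pathway and the infection response, 1 rose and 0 fell, with a median of -0.02. The riser was irg-5, an infection response gene, at 16.7 and 20.4 CPM in the double mutant and 10.3 and 10.9 CPM in the cec-4 mutant (0.80 ± 0.14, adjusted p = 0.0344, up to 0.275 with a library left out). Markers of the intestine itself overlapped in sum between the groups: 13 tested summed to 11532 and 12067 CPM in the double mutant and 12524 and 11455 CPM in the cec-4 mutant, and 0 were called by edgeR or DESeq2 (2 higher and 1 lower by an unadjusted p under 0.05).

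Transcripts for 2 successive enzymes of tyrosine breakdown were lower. Of 12 genes of tyrosine and phenylalanine breakdown, 0 rose and 2 fell, 11 had a negative value, and the median was -0.18. DESeq2 called 6 of them lower. The tyrosine aminotransferase gene tatn-1 (WBGene00009628, X:14791008-14792984), which starts the pathway, had 139 and 132 CPM in the double mutant and 254 and 239 CPM in the cec-4 mutant (-0.86 ± 0.09, adjusted p = 0.00368, 0.0521 without double mutant b). The gene hpd-1, for the dioxygenase that takes the next step, had 367 and 406 CPM in the double mutant and 531 and 483 CPM in the cec-4 mutant (-0.39 ± 0.07, adjusted p = 0.0376, up to 0.177 with a library left out). The groups did not overlap in either gene, which holds for all 111 called genes. The homogentisate oxidase gene hgo-1, further along, did not pass the test (-0.24 ± 0.05, adjusted p = 0.0677).

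Genes known from hypoxia and hydrogen sulfide fell in a small set. Of 21 tested, 0 rose and 2 fell, with a median of -0.12, and 2 were higher and 8 lower by an unadjusted p under 0.05. The gene rhy-1, for a membrane protein that restrains the hypoxia factor HIF-1, had 4.32 and 4.35 CPM in the double mutant and 7.03 and 7.14 CPM in the cec-4 mutant (-0.71 ± 0.13, adjusted p = 0.0345). The cysteine synthase-like gene cysl-3 had 39.5 and 42.3 CPM in the double mutant and 53.2 and 56.3 CPM in the cec-4 mutant (-0.42 ± 0.07, adjusted p = 0.0300). Both were apart between the groups, as every called gene was. The neighbour of cysl-3, rips-1, is outside the list. It had 4.54 and 5.47 CPM in the double mutant and 11.0 and 10.2 CPM in the cec-4 mutant (-1.08 ± 0.15, adjusted p = 0.0117). The genes rips-1 (V:3772021-3774609, plus strand) and cysl-3 (V:3774536-3776136, minus strand) overlap at their ends in WBcel235, and whether counting used the strand is not given, so a part of their reads may be shared. Transcripts of hif-1 had 579.7 and 648 CPM in the double mutant and 614 and 535 CPM in the cec-4 mutant, and did not pass the test (0.10 ± 0.08, adjusted p = 0.680). The calls of rhy-1, cysl-3 and rips-1 were lost without either double mutant library (adjusted p up to 0.238, 0.154 and 0.0985 for the 3 genes in that order).

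Signalling and epidermal genes gave single calls. The insulin-like peptide gene ins-4 (WBGene00002087, II:5996366-5997008) had 3.59 and 2.53 CPM in the double mutant and 7.88 and 8.74 CPM in the cec-4 mutant (-1.44 ± 0.18, adjusted p = 0.00952, 0.0836 without double mutant b). It was the only one of 23 insulin-like genes called, and 0 of 16 genes from the insulin receptor to DAF-16 were called by edgeR or DESeq2, with 0 higher and 0 lower by an unadjusted p under 0.05. Of 101 neuropeptide genes, 2 rose and 0 fell. They were flp-3, at 100.2 and 105 CPM in the double mutant and 73.1 and 62.0 CPM in the cec-4 mutant (0.60 ± 0.08, adjusted p = 0.0109), and nlp-49, at 246 and 251 CPM in the double mutant and 176 and 189.7 CPM in the cec-4 mutant (0.44 ± 0.06, adjusted p = 0.0117). Both calls were lost without double mutant b (largest adjusted p with a library left out 0.105 for flp-3 and 0.128 for nlp-49).

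The body size gene lon-1, a secreted protein repressed by the TGF-beta pathway, had 52.8 and 64.0 CPM in the double mutant and 87.5 and 87.4 CPM in the cec-4 mutant (-0.58 ± 0.09, adjusted p = 0.0149). It was the only one of 15 body size pathway genes called, and the call was lost without cec-4 b or double mutant a (adjusted p up to 0.0739). The water channel gene aqp-8 of the excretory cell had 26.8 and 30.98 CPM in the double mutant and 46.1 and 45.0 CPM in the cec-4 mutant (-0.66 ± 0.08, adjusted p = 0.00874, at most 0.0498 with any library left out). Of 103 cuticle collagens tested, 0 rose and 1 fell, with a median of -0.16. That is 0.971% called, near the 0.773% over all genes tested. By an unadjusted p under 0.05, 2 were higher and 16 lower, where 858 were higher and 1030 lower over all 14355 genes. The called gene was col-80, at 71.4 and 71.3 CPM in the double mutant and 101 and 105 CPM in the cec-4 mutant (-0.53 ± 0.08, adjusted p = 0.0185, up to 0.181 with a library left out). Hedgehog-related genes, which act in the epidermis, had a median of -0.21 over 35 tested, with 0 called by edgeR, 1 called lower by DESeq2, and 0 higher and 5 lower by an unadjusted p under 0.05. Markers of the hypodermis moved the same way in value. Of 9 tested 8 were lower, 0 were called by edgeR or DESeq2 and 3 were lower at an unadjusted p under 0.05, and they summed to 515 and 516 CPM in the double mutant and 554 and 554 CPM in the cec-4 mutant. Their part in the collagen values was not tested.

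**Figure D4:**
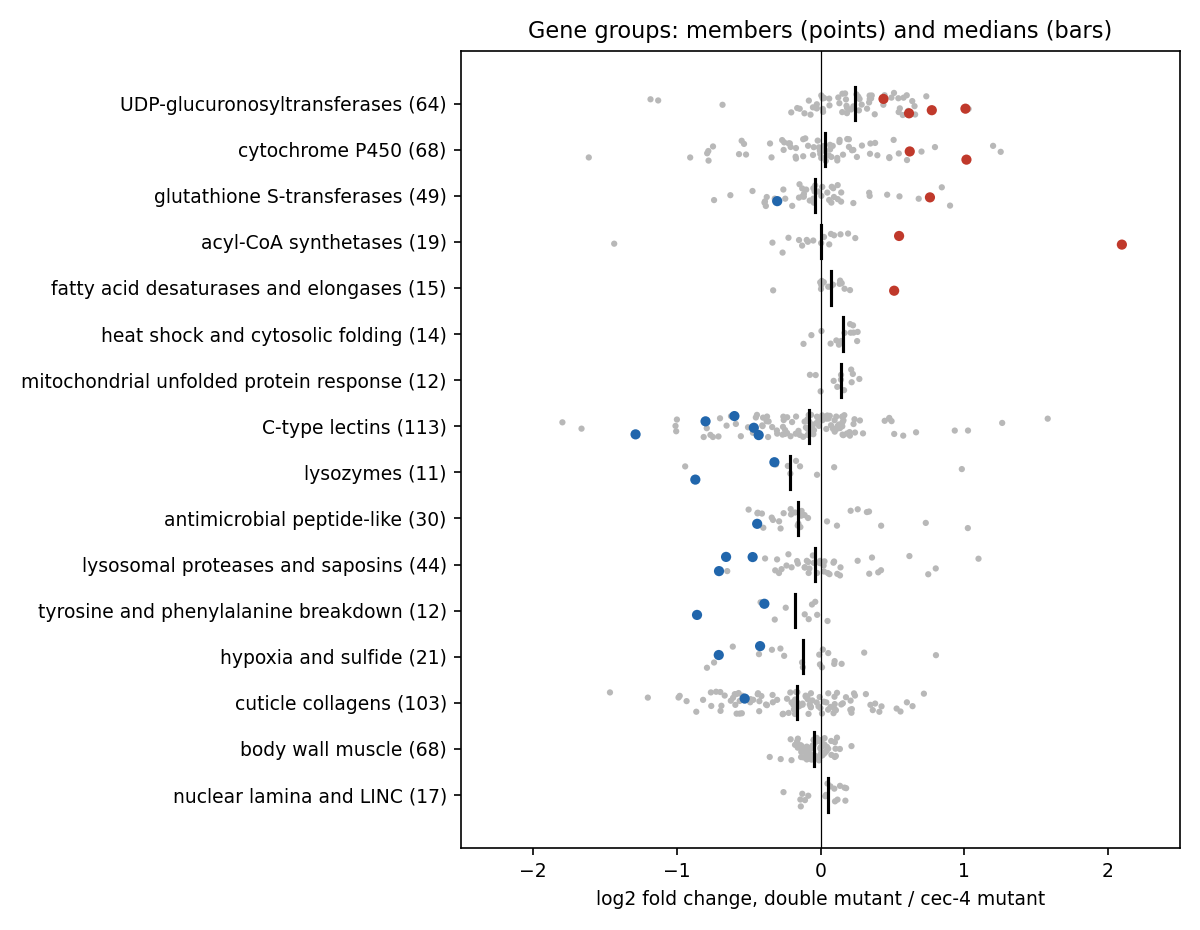
Each row is a gene group with its number of tested members in brackets; grey points are members not called, coloured points are called members (red higher, blue lower) and the bar is the group's median log2 fold change, double mutant over cec-4 mutant. Of the 16 groups drawn, the UDP-glucuronosyltransferases have the highest median, 0.24, and the lysozymes the lowest, -0.21.

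Genes of muscle, the nuclear lamina and heterochromatin gave no calls with edgeR. Over all genes tested 0.773% were called, so lists of this size can hold no call without differing from other genes. Of 68 body wall muscle genes 0 were called by edgeR and 1 was called lower by DESeq2, with 1 higher and 6 lower by an unadjusted p under 0.05 and a median of -0.04. A positive value was seen in 23 of the 68. The nearest to a call was the troponin I gene tni-3, at 44.4 and 52.0 CPM in the double mutant and 59.4 and 63.7 CPM in the cec-4 mutant (-0.35 ± 0.08, adjusted p = 0.0805). The muscle gene dyc-1 was at -0.21 ± 0.06 (adjusted p = 0.136). The myosin heavy chain gene unc-54 had 3630 and 3915 CPM in the double mutant and 4105 and 3690 CPM in the cec-4 mutant, and these overlap (-0.05 ± 0.08, adjusted p = 0.853). Of 9 body wall muscle markers tested, tni-3 among them, 2 had a positive value, with a median of -0.12. In this marker list 0 were called by edgeR and 1 was called lower by DESeq2, with 0 higher and 3 lower by an unadjusted p under 0.05. Of 17 lamina and nuclear bridge genes 0 were called by either tool (3 higher and 1 lower by an unadjusted p under 0.05). The gene anc-1 was at -0.26 ± 0.09 (adjusted p = 0.240), emr-1 (emerin) at 0.10 ± 0.06 and lem-2 at 0.07 ± 0.07. Of 30 genes of H3K9 methylation and heterochromatin 0 were called by either tool and 0 had an unadjusted p under 0.05. In this list mes-4 and mes-6 were at 0.15 ± 0.08 and 0.12 ± 0.05 (adjusted p = 0.463 and 0.404). The methyltransferase genes met-2 and set-25, which make the mark that CEC-4 reads, were at 0.02 ± 0.06 and -0.20 ± 0.12 (adjusted p = 0.934 and 0.500).

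Genes of protein synthesis and folding leaned upward without calls. All 78 cytosolic ribosomal protein genes had a positive value, with a median of 0.11, and 0 were called by edgeR or DESeq2 (3 higher and 0 lower by an unadjusted p under 0.05). Their sum was 165078 and 175720 CPM in the double mutant and 168687 and 145817 CPM in the cec-4 mutant, where library b was the lowest of the 4, and their median was 0.01 without cec-4 b and 0.21 without cec-4 a. Of 14 cytosolic folding genes 7 were higher and 0 lower by an unadjusted p under 0.05, with a median of 0.15, and of 12 genes of the mitochondrial unfolded protein response 7 were higher and 0 lower, with a median of 0.14; 0 genes of either group were called by edgeR or DESeq2. The chaperone genes hsp-110 and hsp-6 had 0.25 ± 0.08 and 0.22 ± 0.07 (adjusted p = 0.177 and 0.223). Leaving out single libraries kept these medians between 0.12 and 0.22 for cytosolic folding and between 0.12 and 0.16 for the mitochondrial response.

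By position, chromosome V held 45 of the 111 called genes (17 higher, 28 lower), or 40.5% of the calls, and 21.2% of the genes tested. Chromosome I held 4 of 2155 tested genes, and the remaining chromosomes held 7 to 19 called genes each. CEC-4 acts on heterochromatin that lies mostly along the outer parts of the autosomes, and each chromosome was therefore divided into 3 equal lengths. On autosomes, 42 of 5047 genes (0.832%) were called in the middle length and 50 of 6881 (0.727%) in the outer lengths. Over all tested genes with a position, 221 of 14067 (1.57%) lay next to a called gene of either direction. Of the called genes, 9 (8.11%) lay next to a tested gene called in the same direction. They formed 5 neighbouring pairs, all on chromosome V, and without cec-4 b there were 0 such pairs, without either library of the double mutant 1, without lamin Y59C a 12 and without lamin Y59C b 11. The pairs were R08E5.1 with rips-1, rips-1 with cysl-3, fat-7 with F10D2.10, C12D5.4 with C12D5.3, and acs-2 with lsm-5. The genes rips-1 and cysl-3 overlap at their ends, so that pair may share reads.

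The lamin effect was then set beside the same effect with CEC-4 present, lamin Y59C against wild-type. The group means of these comparisons share no library, but each gene's spread was estimated from all 8 libraries for both tests. Their calls are therefore not independent. Lamin Y59C against wild-type called 73 genes (0.509%), 33 higher (0.23%) and 40 lower (0.279%). Over 14351 genes with counts in every group, the effects without and with CEC-4 had the same sign in 55.3%, with a Pearson correlation of 0.17 and a Spearman correlation of 0.15 across genes, as a description. Of the 73 genes, 62 had the same sign in the double mutant against the cec-4 mutant. The 40 falls kept their sign in 38 (95%), with a median of -0.48 without CEC-4 and -0.94 with it. The 33 rises kept their sign in 24, with a median of 0.11 without CEC-4 and 0.74 with it. From the other side, 82 of the 111 genes called without CEC-4 (73.9%) had the same sign with CEC-4. The 73 genes were chosen for a change with CEC-4 and the 111 for a change without it, so these medians are no independent comparison of size.

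Both effects passed the test in 17 genes, which are 15.3% of the 111 and 23.3% of the 73, and all 17 moved in the same direction. The tests shared each gene's estimate of spread, so a gene with a low estimate was favoured in both. How many of the 17 this accounts for was not tested. The 8 rises were R03G8.1, ani-2, unc-119, cyp-36A1, flp-3, lsm-5, fat-7 and F10D2.10. The 9 falls were lys-2, vha-7, hpd-1, lon-1, anmt-3, F13E9.15, ins-4, nas-3 and Y53C12B.7. Some passed narrowly: with CEC-4 the adjusted p was 0.0454 for cyp-36A1, 0.0454 for hpd-1 and 0.0453 for lys-2. With a block for the letters a and b, the calls without CEC-4 of cyp-36A1, fat-7, F10D2.10, lys-2, vha-7, hpd-1 and nas-3 were lost. Their adjusted p was then 0.0557 to 0.0895, and the calls without CEC-4 of the other genes held. The gene ins-4 fell by 1.44 ± 0.18 without CEC-4 and fell by 1.03 ± 0.17 with it, where lamin Y59C had 4.35 and 3.60 CPM and wild-type 8.91 and 7.44 CPM. The gene lon-1 fell by 0.58 ± 0.09 without CEC-4 and fell by 0.54 ± 0.08 with it, and the vacuolar ATPase subunit gene vha-7 fell by 0.39 ± 0.06 without CEC-4 and fell by 0.49 ± 0.06 with it. For these 3 genes the difference of the effects did not pass the test (adjusted p = 0.605 for ins-4, 0.921 for lon-1 and 0.741 for vha-7).

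**Figure D5:**
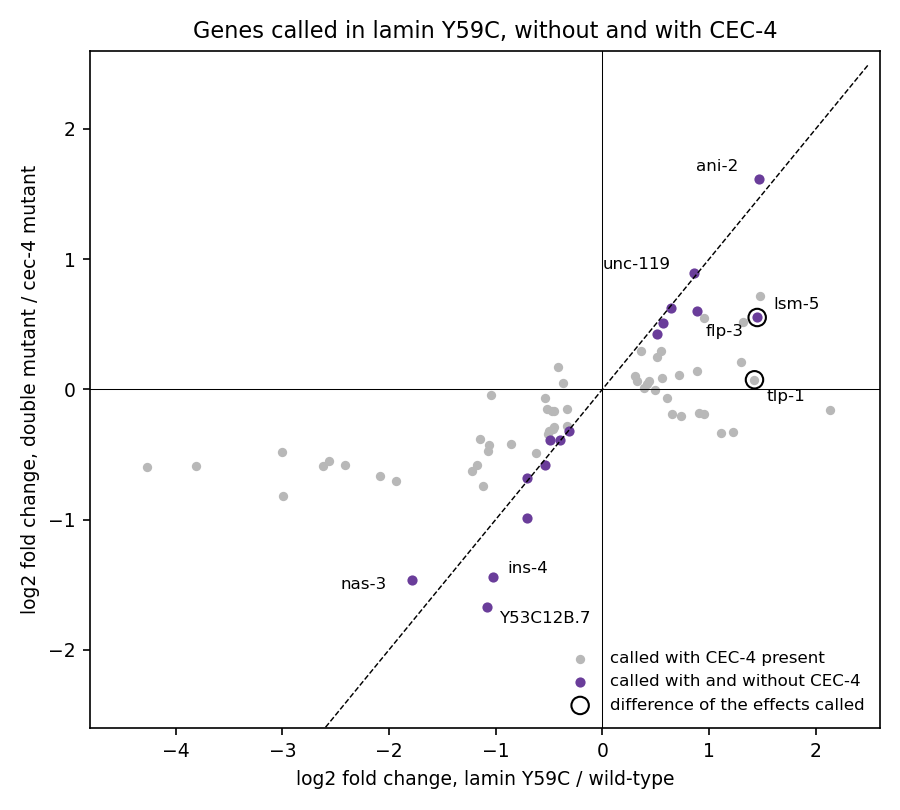
Each point is a gene called in lamin Y59C against wild-type, with that log2 fold change on the horizontal axis and the log2 fold change of the double mutant against the cec-4 mutant on the vertical axis; the dashed line marks equal effects and 71 of the 73 genes, those with counts in every group, are drawn. Genes called in both comparisons (purple, 16 drawn) lie on the same side of 0 in both, and the far left points are genes whose fall in lamin Y59C is larger than 2 on the log2 scale and whose change without CEC-4 is under 1.

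The difference of the effects (without CEC-4 minus with CEC-4) was tested directly and was called in 5 genes (0.0348%), all negative; by an unadjusted p under 0.05, 651 genes were higher and 792 lower, and DESeq2 called 75. The gene tlp-1 (WBGene00006580, IV:13701208-13704082), a zinc-finger gene of tail patterning, had 34.0 and 30.9 CPM in the double mutant and 32.0 and 29.7 CPM in the cec-4 mutant, so these overlap (0.07 ± 0.07, adjusted p = 0.695). It had 81.1 and 79.9 CPM in lamin Y59C and 29.8 and 30.1 CPM in wild-type, and the difference of the effects was -1.35 ± 0.09 (adjusted p = 0.000643). The gene lsm-5, for a Sm-like protein of mRNA decay and splicing complexes (WBGene00003079, V:15570380-15570655), had 41.9 and 37.4 CPM in the double mutant and 28.1 and 26.1 CPM in the cec-4 mutant (0.55 ± 0.07, adjusted p = 0.0107, up to 0.0615 with a library left out). It stood at 78.5 and 76.4 CPM in lamin Y59C and 28.4 and 28.3 CPM in wild-type, and the difference of the effects was -0.90 ± 0.10 (adjusted p = 0.0161). Thus both strains with the transgene lay above their controls for lsm-5, and the lamin Y59C libraries lay furthest above. For lys-7, clec-42 and the claudin-like gene clc-11, the double mutant lay below the cec-4 mutant while lamin Y59C lay above wild-type in value. In lys-7 the effect was -0.87 ± 0.09 without CEC-4 and 0.46 ± 0.09 with it (adjusted p = 0.0657 for the second), and their difference was -1.33 ± 0.13 (adjusted p = 0.00983).

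Collagen genes with the largest falls in lamin Y59C showed no call without CEC-4. In col-41 (WBGene00000618, X:15175032-15176481) the double mutant had 1.47 and 1.18 CPM and the cec-4 mutant 1.86 and 2.15 CPM (-0.60 ± 0.25, adjusted p = 0.351), where lamin Y59C had 0.0315 and 0.158 CPM and wild-type 1.63 and 2.09 CPM (-4.27 ± 0.42, adjusted p = 0.00326). The difference of the effects in col-41 was 3.68 ± 0.54 and did not pass the test (adjusted p = 0.0897). In the cuticle collagen gene dpy-5 the double mutant had 1.96 and 1.47 CPM and the cec-4 mutant 1.96 and 2.80 CPM, which overlap, against 0.189 and 0.347 CPM in lamin Y59C and 2.29 and 2.09 CPM in wild-type. The difference of the effects in dpy-5 was 2.52 ± 0.43 (adjusted p = 0.116). These are genes of few counts at this stage, and col-41 and dpy-5 were picked out after their values were seen.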

How the data were processed

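Total RNA libraries of 8 samples were read as 50 bp single-end reads, per the labels' protocols. Bowtie, ce10 and edgeR 3.24.0 are named in the submitters' processing notes. How reads were counted, with which annotation and whether by strand, is not given in the sources used here. Overlapping and near-identical genes are therefore uncertain. The authors deposited whole-number counts per gene and library, which were tested. The authors also deposited a normalized table on the log2 scale; 0 of its 163136 values differed by more than 1e-06 from log2(scaled count + 8), with counts scaled to the mean library total, and it was not used further. Symbols were found for 19182 of 20392 gene IDs, and positions for 19870 in WBcel235, by ID alone.

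With edgeR 4.0.16 (R 4.3.3), filterByExpr removed 6037 genes (0.0278% of counts), libraries were scaled by TMM, and the two-sided quasi-likelihood F-test used all 8 libraries and a mean for each group (dispersion 0.00408 in common, degrees of freedom 4 residual and 6.03 prior). CPM were taken over the TMM-scaled total of each library. The SE is the log2 change divided by the square root of F, and may be too small at few counts. Contrasts were the double mutant minus the cec-4 mutant, lamin Y59C minus wild-type, and their difference. The fit was also run on simulated counts, drawn independently for each library with the spread fitted here. Such counts cannot show whether the test holds if libraries a and b are technical replicates. DESeq2 1.42.0, RLE scaling, other filters, a block, the 4 libraries alone and leaving out each library were alternatives. Library size limits precision at low counts, and floors cover counting error only.

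The comparison, its gene lists and the rule for named genes were chosen with earlier results of these data known, so a list's direction is no independent evidence. The rule took the genotype genes; the 15 largest called rises and falls with a genetic name and up to 3 each way with a sequence name, of at least 5 CPM in a group and without overlap; up to 4 called members per list, or 2 as values where none was called; and up to 10 genes each of both effects and of their difference. Values of unc-54, emr-1, lem-2, met-2, set-25, hgo-1, hif-1, ugt-42 and clec-80 were given outside this rule.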

Additional observations from a re-analysis of the deposited data

Results flagged for a closer look

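The lamin effect without CEC-4 differed from the lamin effect with it in 5 genes by the test of the difference (edgeR's quasi-likelihood test, Benjamini-Hochberg adjustment), and each is given as the effect without CEC-4 minus the effect with it. The difference was -1.35 ± 0.09 (log2 ± SE) in tlp-1 (adjusted p = 0.000643), and it was called in every fit that left out 1 library. In lys-7 it was -1.33 ± 0.13 (adjusted p = 0.00983); the call was lost without lamin Y59C a (adjusted p = 0.0699) or wild-type a (adjusted p = 0.0692). In lsm-5 it was -0.90 ± 0.10 (adjusted p = 0.0161), and the call was lost without lamin Y59C a, double mutant b, wild-type a or wild-type b (adjusted p up to 0.131). In clec-42 it was -1.15 ± 0.15 (adjusted p = 0.0476). The double mutant had 188 and 170.0 CPM and the cec-4 mutant 281 and 342 CPM, while lamin Y59C had 348 and 293 CPM and wild-type 243 and 260.4 CPM. In clc-11 it was -1.11 ± 0.14 (adjusted p = 0.0476), with 9.50 and 9.95 CPM in the double mutant, against 16.5 and 16.4 CPM for the cec-4 mutant; lamin Y59C had 14.5 and 12.6 CPM and wild-type 10.01 and 11.2 CPM. The calls of clec-42 and clc-11 were lost without either double mutant library (adjusted p up to 0.2995 for clec-42 and 0.232 for clc-11), and also without cec-4 b, lamin Y59C a, wild-type a or wild-type b; that of clc-11 was lost without cec-4 a as well (adjusted p = 0.0647).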

How the results depend on the processing

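The count of 111 calls was 112 with RLE scaling, 107 with a filter of at least 1 CPM and 138 with the 4 libraries alone; it was 250 with DESeq2 and 212 with no filter. Leaving out 1 library gave 11 to 140 calls. With a replicate block it was 58, all among the 111. The letters a and b were not taken to pair the samples: same-letter deviations had a correlation of -0.19 between the double mutant and the cec-4 mutant, of 0.195 for the double mutant with lamin Y59C, and of -0.22 for the cec-4 mutant with lamin Y59C; a crossed replicate block, chosen after seeing the data, gave 301 calls and 41 calls of the difference of effects. The 62 called genes named by the rule were 37 with the replicate block and 9 to 57 with 1 library left out. The 5 calls of the difference were 75 with DESeq2, 34 with no filter and 3 at 1 CPM, and 1 to 35 with 1 library left out. The share of calls with the same sign with CEC-4, 73.9%, was 82.8% with the replicate block and 55.7% to 90.9% with 1 library left out. The 47 called list members were 88 with DESeq2, 77 with no filter, 26 with the replicate block and 7 to 53 with 1 library left out. The 5 neighbouring pairs were 15 with DESeq2, 12 with no filter, 9 with the 4 libraries alone, 1 with the replicate block and 0 to 12 with 1 library left out. The share of calls on chromosome V was 40.2% with RLE scaling and 44.2% with the 4 libraries alone. No called gene named by the rule changed direction under these alternatives; single genes were not refitted with the crossed block. The cause of these moves was not tested. Of genes under 1 CPM, 3 of 1976 were called, and depth limits what can be seen there.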

Other observations

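A few genes stood out by level without a call. Transcripts of acdh-1, an acyl-CoA dehydrogenase gene of the propionate shunt, had 17.1 and 20.6 CPM in the double mutant and 1.90 and 4.00 CPM in the cec-4 mutant (2.64 ± 0.82, edgeR adjusted p = 0.197), while lamin Y59C had 1.64 and 1.99 CPM and wild-type 12.2 and 0.674 CPM. The wild-type libraries of this gene were themselves far apart. In daf-42 only cec-4 b was high, at 15.8 CPM, where cec-4 a had 0.392 CPM and the double mutant 0.245 and 0.192 CPM. Both genes were chosen after their values were seen.

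Calls were also made in 4 genes of other roles. The ETS factor gene lin-1 had 32.1 and 30.0 CPM in the double mutant and 42.1 and 40.4 CPM in the cec-4 mutant (-0.41 ± 0.06, adjusted p = 0.0163). The Ras pathway scaffold gene soc-2 had 121 and 125 CPM in the double mutant and 153 and 152 CPM in the cec-4 mutant (-0.31 ± 0.05, adjusted p = 0.0275). The gene lin-18, for a Wnt receptor of the Ryk family, had 37.8 and 38.3 CPM in the double mutant and 48.8 and 47.4 CPM in the cec-4 mutant (-0.34 ± 0.06, adjusted p = 0.0321). The gene lin-23, for an F-box protein of a ubiquitin ligase, rose, at 98.2 and 97.1 CPM in the double mutant and 78.1 and 77.6 CPM in the cec-4 mutant (0.33 ± 0.06, adjusted p = 0.0372). These 4 genes were chosen after their values were seen, and all 4 calls were lost without either double mutant library or either cec-4 library (adjusted p up to 0.175 for lin-1, 0.144 for soc-2, 0.205 for lin-18 and 0.218 for lin-23).

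The small heat shock gene hsp-12.3 was at a low level. It had 0.705 and 0.928 CPM in the double mutant and 2.65 and 2.28 CPM in the cec-4 mutant (-1.59 ± 0.21, adjusted p = 0.0117). It was the only one of 10 small heat shock genes called. The F-box genes fbxa-136 and fbxa-185 fell by 1.25 ± 0.18 and fell by 1.60 ± 0.24 (adjusted p = 0.0136 and 0.0172). These 2 of 144 F-box genes were called, 1.39% against 0.773% over all genes tested, and the median was -0.10. Both F-box calls were lost without double mutant b. That of fbxa-136 was also lost without cec-4 b, and that of fbxa-185 without double mutant a or cec-4 a. The gene pud-3 on chromosome V, known from long-lived daf-2 mutants, had 60.2 and 32.4 CPM in the double mutant and 132 and 235 CPM in the cec-4 mutant (-1.99 ± 0.34, adjusted p = 0.0300), the largest fall among called genes, with libraries of each group well apart from each other. The calls of hsp-12.3 and pud-3 were lost without either double mutant library (adjusted p up to 0.0985 and 0.240), and that of pud-3 also without cec-4 b.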
